A study of Mus musculus with 6 samples.

Results

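The miR-376 miRNAs and their A-to-G edited reads were examined among short RNAs bound to Argonaute (Ago) proteins in mouse brain. The members were the mature arms of miR-376a, miR-376b and miR-376c, which are 6 of the 782 mature miRNAs named in the deposited table. They were taken by their names, and reads were called edited where an A of the seed was read as G. The family was chosen by its read values, since earlier values of these libraries had already shown such reads, so the edited shares are given as a description. The 6 samples were 3 WT mice and 3 Tau tg mice. Tau tg mice carried a fragment of human tau under the Thy 1.2 promoter, which drives expression in neurons. Per the study's methods all were 3-month-old males, and the transgene was kept on a C57BL/6J background after backcrossing. The protocol in the labels gave cortex and hippocampus combined, while the source labels of both groups named hippocampus. The study's results also named hippocampi for this mouse model. Libraries held between 998248 and 6879552 reads, with Tau tg 1 the deepest and WT 3 the shallowest. Neuronal marker miRNAs summed to between 129096 and 152339 RPM in the 6 samples, RPM being reads scaled to library size. Pituitary marker miRNAs summed to between 1481 and 5260 (5259.95) RPM in WT and between 1319 and 1512 RPM in Tau tg. Of these 4 markers, 2 had an unadjusted limma p under 0.05 and 0 passed after adjustment. Over all miRNAs, 25 of 689 (3.63%) had such an unadjusted p. So did 1 of 3 choroid plexus markers and 0 markers of the other cell types examined. The part of the pituitary markers in the levels below was not tested. In bulk tissue, fewer cells of a type and less RNA per cell cannot be told apart.

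A miRNA guides Ago to mRNAs through its seed, which pairs with the target. ADAR enzymes change adenosine to inosine in double-stranded RNA, and sequencing reads inosine as G. The miR-376 hairpins are known substrates of ADAR enzymes in brain, and an edited seed pairs with other targets than the genomic one. The hairpins belong to the imprinted cluster that runs from miR-379 to miR-410.

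The hairpins lay within 1131 bases of chromosome 12, on the plus strand of GRCm38. Mir376c was at chr12:109722718-109722803, Mir376b at chr12:109723458-109723539 and Mir376a at chr12:109723781-109723848. GENCODE M21 annotates each as a miRNA gene with 1 exon. Mir654 lies between Mir376c and Mir376b, and the miRNA gene Gm25252 overlaps Mir376a on the minus strand. The mature sequences below are those of RefSeq (GRCm38.p6), with the seed, bases 2 to 8, in capitals, because the arms differ there. RefSeq held 5 of the 6 arms, and miR-376c-3p was taken from its commonest read.
mmu-miR-376a-3p: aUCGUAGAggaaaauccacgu
mmu-miR-376b-3p: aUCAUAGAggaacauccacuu
mmu-miR-376a-5p: gGUAGAUUcuccuucuaugagu
mmu-miR-376b-5p: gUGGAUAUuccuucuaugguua
mmu-miR-376c-5p: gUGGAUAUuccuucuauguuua
Seeds of miR-376b-5p and miR-376c-5p were identical, while the 3p arms of miR-376a and miR-376b differed inside the seed.

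The commonest unedited and edited reads of the 4 arms that were edited follow, with the base at the site in capitals. Positions are counted from 1 at the 5′ end of the mature miRNA.
miR-376b-3p unedited: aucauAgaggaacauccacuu
miR-376b-3p edited: aucauGgaggaacauccacuu
miR-376c-3p unedited: aacauAgaggaaauuucacgu
miR-376c-3p edited: aacauGgaggaaauuucacgu
miR-376a-5p unedited: gguAgauucuccuucuaugagu
miR-376a-5p edited: gguGgauucuccuucuaugagu
miR-376b-5p unedited: guggauAuuccuucuaugguu
miR-376b-5p edited: guggauGuuccuucuaugguu
The changes were A6G in both 3p arms, A4G in miR-376a-5p and A7G in miR-376b-5p. On GRCm38 the A bases are at position 109723513 of chromosome 12 for miR-376b-3p and 109722775 for miR-376c-3p. They are at 109723789 for miR-376a-5p and 109723477 for miR-376b-5p.

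Edited reads had largely lost their names in the deposited table. Of the 241 sequences that matched a hairpin here, 123 were named as a member in the deposited miRNA column and 118 had no miRNA name. All 123 named sequences shared an exact stretch of at least 18 nt with their hairpin, and none of the 118 shared more than 17 nt. An A6G or A7G change leaves a shorter stretch in a read of this length. No edited read of miR-376b-3p, miR-376c-3p or miR-376b-5p had a name, while 82.9% of the edited RPM of miR-376a-5p did. The more general annotation column of the table gave 97.6% of edited miR-376b-3p RPM to the hairpin. It gave 5.39% of edited miR-376b-5p RPM to mRNAs.

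Adding these reads changed the family most in miR-376b-3p, the arm with the largest edited share. By name, WT 1 to 3 held 631, 489 and 491 RPM of it, while Tau tg 1 to 3 held 828, 685 and 512. With all matched reads the WT samples held 2233, 2590 (2590.5) and 1782 RPM, while the Tau tg samples held 2867, 3200 (3199.7) and 1898. The groups overlapped either way. Its mean was thus 4.01 times as high, and its rank among the named miRNAs moved from 136 to 57. For that rank, unnamed reads were added to the members alone, while all other miRNAs kept their named reads only. The mean of miR-376c-3p was 2.04 times as high with the matched reads, against 1.03 times for miR-376a-3p, 1.07 for miR-376a-5p and 1.12 for miR-376b-5p. By name miR-376a-3p was the most abundant member, and with edited reads miR-376b-3p was. Together the members took 0.430% to 0.643% of RPM in each sample, and their reads without a name made up 0.901% to 3.10% of all RPM that had no miRNA name.

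**Figure D1:**
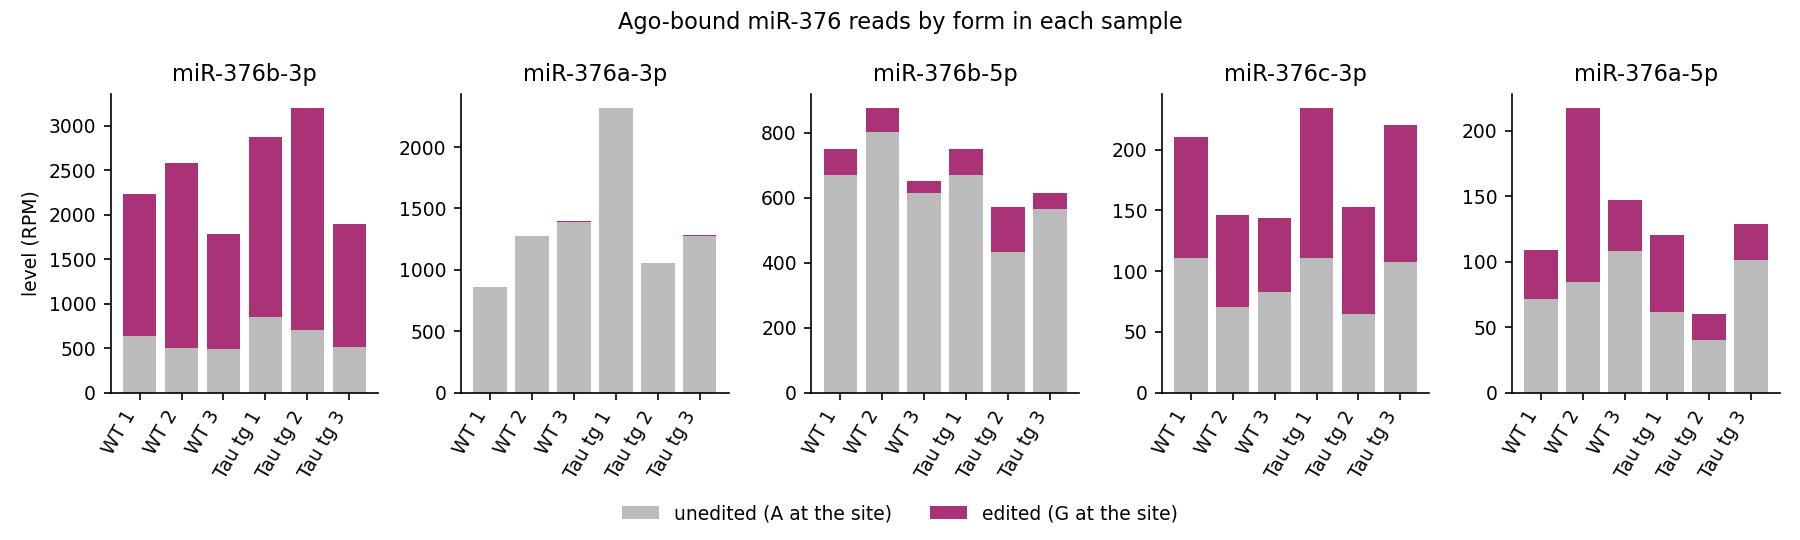
Level in RPM of unedited (gray) and edited (purple) reads of the 5 arms with enough reads, stacked for each WT and Tau tg sample, with a separate axis from 0 for each arm. Edited reads made up most of miR-376b-3p in every sample and were close to absent from miR-376a-3p.

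By its mean over the 6 samples, the edited form of miR-376b-3p was the most abundant form of the family, although unedited miR-376a-3p was higher in WT 3 and in Tau tg 1. WT 1 to 3 held 1596, 2087 and 1290 (1289.8) RPM of it, while Tau tg 1 to 3 held 2021, 2498 and 1382. Of the unedited form, the WT samples held 638, 495.3 and 493 RPM, while the Tau tg samples held 846, 702 and 517. Edited exceeded unedited reads in 6 of 6 samples, and the groups overlapped for both forms. A single 21-nt edited sequence, shown above, had a mean of 1368 RPM and was the most abundant member sequence of all, and it carried no miRNA name.

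The edited share is the number of G reads over A plus G reads at the site. At A6 of miR-376b-3p WT 1 to 3 had 71.5%, 80.8% and 72.4%, while Tau tg 1 to 3 had 70.2%, 78.0% and 72.7%. These rest on 1939 to 19947 reads per sample, and the 95% Wilson intervals span from 69.6% to 70.9% in Tau tg 1 and from 70.3% to 74.3% in WT 3. The mean was 74.3% ± 4.17 (SD, n = 6), and WT 2 and Tau tg 2 were the highest of their groups. Intervals cover counting error only, since reads without molecular identifiers are not independent molecules.

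At A6 of miR-376c-3p, the WT samples had edited shares of 47.3%, 51.9% and 42.7%, while the Tau tg samples had 52.9%, 57.9% and 51.2%. The mean was 50.7% ± 5.18 (SD, n = 6), so edited and unedited reads were about equally common. The edited form made up 99.8, 75.9 and 61.5 RPM of the WT samples, while it made up 124, 88.7 and 113 RPM of the Tau tg samples. WT 3 had 157 reads at this site, and its interval ran from 35.2% to 50.5%.

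The 5p arms were edited at other positions and less evenly. At A4 of miR-376a-5p WT 1 to 3 had 34.5%, 61.1% and 26.3%, while Tau tg 1 to 3 had 48.8%, 33.3% and 21.6%, with 72 to 844 reads per sample. The mean was 37.6% ± 14.8 (SD, n = 6), and WT 2 stood highest. Reads of this arm began at the RefSeq 5′ end with a mean of 54.6 RPM or 1 base further in with 64.4 RPM, so that the edited A was at read position 4 or 3. The pooled edited share was 48.4% for the RefSeq start and 34.2% for the shifted start, but without Tau tg 1 it was 34.9% and 36.2%, so the order rests on that sample.

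At A7 of miR-376b-5p WT 1 to 3 had 10.9%, 8.64% and 5.99%, while Tau tg 1 to 3 had 11.1%, 24.7% and 8.47%. Tau tg 2 stood above the other samples, and its interval of 21.5% to 28.1% lay above all of theirs. The mean was 11.6% ± 6.65 (SD, n = 6). All 1181 edited reads of this arm began at the RefSeq 5′ end. None of 798 reads that began 1 base further in were edited, although 11.9% of the pooled reads with the RefSeq start were. The sample shares above include these shifted reads. This contrast pools reads, and the comparison by sample, given below with the read ends, did not pass after adjustment. The edited form was rarer, with a mean of 77.2 RPM against 625 RPM unedited. Whether the removal of rare sequences took out shifted edited reads was not tested.

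The 3p arm of miR-376a was almost unedited at the same A6, which stands in the same UAG triplet as in its relatives. G reads numbered 0 of 1842, 0 of 1883 and 2 of 1521 for WT 1 to 3, while they numbered 12 of 16290, 0 of 1266 and 9 of 3124 for Tau tg 1 to 3. The count of 0 in WT 1 allows a share of up to 0.163%, and the mean share was 0.0822% ± 0.114 (SD, n = 6). Of the 23 reads, 13 also carried G4A, which makes their seed that of edited miR-376b-3p, so their origin is uncertain. The remaining 10 were all in Tau tg 1. The WT samples held 863, 1276 and 1393 RPM of unedited reads, while the Tau tg samples held 2319, 1059 and 1277.

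Mean shares ran in the order miR-376b-3p A6, miR-376c-3p A6, miR-376a-5p A4, miR-376b-5p A7 and miR-376a-3p A6. The first exceeded the second by 23.6 ± 4.94 percentage points (SD, n = 6), in 6 of 6 samples. The second exceeded the third by 13.1 ± 14.1 points, in 5 of 6 samples, a difference within its own spread. The third exceeded the fourth by 26.0 ± 16.4 points and the fourth the last by 11.5 ± 6.70 points, each in 6 of 6 samples. Positions 2 to 7 hold further A bases, and among those of the arms tested the mean share was at most 0.209%, at A2 of miR-376c-3p. At A4 of miR-376c-3p and A6 of miR-376a-5p no G read was found among 3174 and 1929 reads. miR-376c-5p had at most 12 reads in a sample, none with G at A5 or A7, and its sites were not tested. No read held C or U at any of these A bases or at the leading sites. The files hold no genomic reads of the mice, so an edited base and a genomic G cannot be told apart. Rare sequences had been removed by the authors, so shares near 0 are incomplete.

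**Figure D2:**
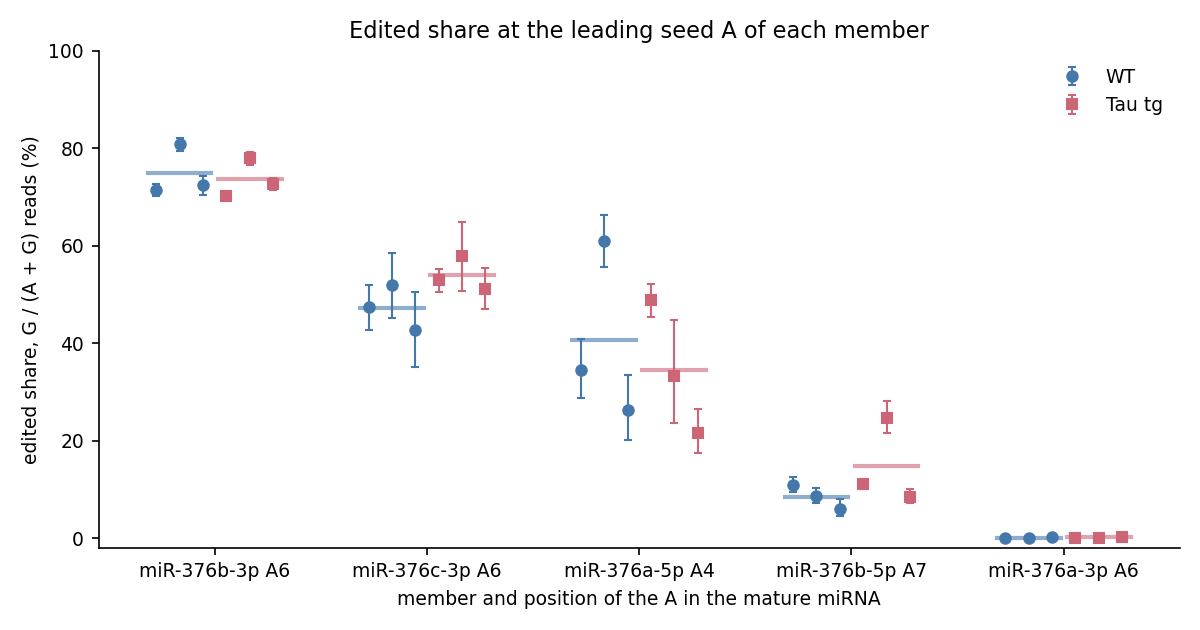
Edited share, in percent of A plus G reads, at the leading seed A of each member for 3 WT samples (circles) and 3 Tau tg samples (squares), with 95% Wilson intervals and group means as bars. The groups overlap at each site, and the sites fall from 74.3% for miR-376b-3p A6 to 0.0822% for miR-376a-3p A6.

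Outside positions 2 to 7, no A of a member with at least 200 reads reached 1% in reads with the reference start. The highest such value was 0.785% at A12 of miR-376a-3p (199 of 25346 reads held G, with a 95% Wilson interval of 0.684% to 0.901%). At A8 of miR-376b-3p 0.249% of reads held G. Sequences of miR-376b-3p with both A6G and A8G summed to 61 reads.

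The hairpins were folded with RNAfold, and the Mir376b hairpin is shown with both edited A bases in capitals, next to that of Mir376a with A4 of the 5p arm and the almost unedited A6 of the 3p arm in capitals.
Mir376b: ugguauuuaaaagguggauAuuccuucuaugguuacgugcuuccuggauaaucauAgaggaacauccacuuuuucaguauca
Mir376a: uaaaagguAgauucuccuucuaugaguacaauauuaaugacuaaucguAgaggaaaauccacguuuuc
The edited A of both 5p arms was predicted to be unpaired, opposite a C. A6 of all 3 3p arms was predicted to pair with a U, in miR-376a-3p as well as in its edited relatives. RefSeq gives Mir376a 68 bases and a predicted free energy of -16.6 kcal/mol, against -33.8 for the 82 bases of Mir376b, so the stems compared are not of equal length. The fold is a prediction, and whether it bears on the shares was not tested.

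The members were set against other named miRNAs in a scan of seed A bases with at least 200 pooled reads. Of 782 named miRNAs, 131 were left out because the first 17 bases of their commonest read were in no RefSeq hairpin. A share of at least 5% was reached at 10 of 588 A bases, which is 1.7%. Of the 10 sites, 4 belonged to the members, which is a description because the family was chosen for its edited reads. For the other 11 kinds of base change together, 5 of 5994 combinations of position and change reached 5%, which is 0.0834%. miR-376b-3p A6 ranked 2, miR-376c-3p A6 ranked 3, miR-376a-5p ranked 4 at its shifted start and A7 of the 5p arms of miR-376b and miR-376c, whose first 17 bases are the same, ranked 8. Single samples ran from 0% to 60.5% at the miR-376a-5p site, on as few as 21 reads.

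Another 4 of the 10 belonged to a list of 12 miRNAs known to be edited in brain, of which 9 had an A base in the scan. miR-3099-3p ranked 1, with 75.3% pooled and between 45.2% and 96.1% in single samples, on as few as 84 reads. miR-411-5p (24.5%) and miR-379-5p (16.1%), which are encoded in the same cluster, came next among these. miR-1251-5p had 6.67%, which fell below the limit, to 1.22%, without Tau tg 1, and miR-374c-3p, outside the list, had 7.04% with G reads in WT 2 alone. miR-381-3p stayed below the limit at 3.61%. The triplet UAG, found at 3 of the 4 member sites, stood at 45 of the 588 A bases and at 8 of the 10 called, miR-1251-5p and miR-374c-3p included.

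**Figure D3:**
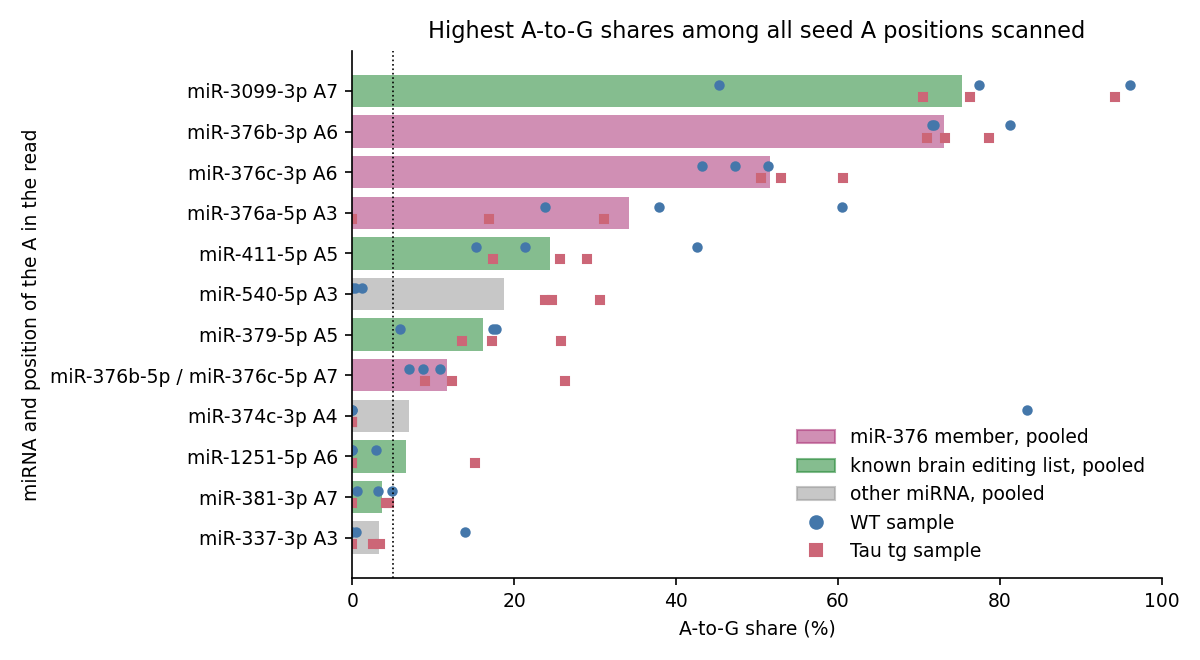
A-to-G share in percent for the 12 highest of 588 seed A bases, with bars for pooled reads and points for single WT and Tau tg samples, and a dotted line at 5%. Bars of the members run from 73.1% (miR-376b-3p) to 11.7% (the 5p arm shared by miR-376b and miR-376c).

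The study assigned to each 6mer seed, positions 2 to 7, a viability score. It is the viability of cells transfected with a short RNA of that seed, in percent of control, averaged over 3 murine cell lines. Seeds with low values are toxic. Edited seeds were given the score of the seed with G, as sequenced. Whether a seed with inosine has the same viability was not tested. The edited seeds of the 3p arms of miR-376b and miR-376c had values below 50%. For miR-376b-3p the unedited seed UCAUAG has a viability of 66.8% and the edited seed UCAUGG 44.2%. For miR-376c-3p ACAUAG has 78.1% and ACAUGG 46.4%. The edited seed of miR-376b-5p, UGGAUG, has 71.7% against 93.0% for UGGAUA, and for miR-376a-3p, whose edited form was almost absent, UCGUGG has 62.3% against 82.5% for UCGUAG. The direction was opposite in miR-376a-5p, where GUAGAU has 38.8% and GUGGAU 50.2%, and in its shifted form, where UAGAUU has 79.2% and UGGAUU 84.6%.

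These changes are the authors' values for the seeds and were read beside the same change over all seeds. Changing A to G at position 6 lowered the viability in 80.6% of 1020 seed pairs, with a median of -14.9 percentage points. The change of -22.6 points for miR-376b-3p was within the quartiles of -29.2 and -2.40, and 34.7% of pairs fell at least as far. For miR-376c-3p, with -31.7 points, that share was 20.5%. At position 7 the median was -5.90 points, and 14.2% of pairs fell at least as far as miR-376b-5p with -21.3. At position 4 the median was -4.90 points and at position 3 it was -6.90. The gains of 11.4 and 5.40 points in miR-376a-5p exceeded or equalled 87.6% and 78.2% of pairs.

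Reads of the edited miR-376b-3p seed were nearly all from this miRNA. UCAUGG had a mean of 1784 RPM, of which 99.1% were edited miR-376b-3p, and it ranked 17 among seeds with a viability under 50%. No other named miRNA carried it. ACAUGG had 104 RPM, of which 89.6% were edited miR-376c-3p. The mean viability over matched family reads, weighted by RPM, was 65.6% ± 2.69 (SD, n = 6), and it was 74.9% ± 1.09 when every edited base was set back to A. With edited bases scored as G, 33.8% to 51.6% of family RPM had a seed under 50% viability, against 1.11% to 2.37% with them set back to A. In the whole library the mean viability with editing minus that with bases set back to A was -0.0469 percentage points on average. Edited family reads made up 0.570% to 1.05% of all RPM under 50%. The family mean viability was 66.1% ± 1.43 in WT and 65.0% ± 3.89 in Tau tg (SD, n = 3 each; exact permutation p = 0.8, two-sided).

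**Figure D4:**
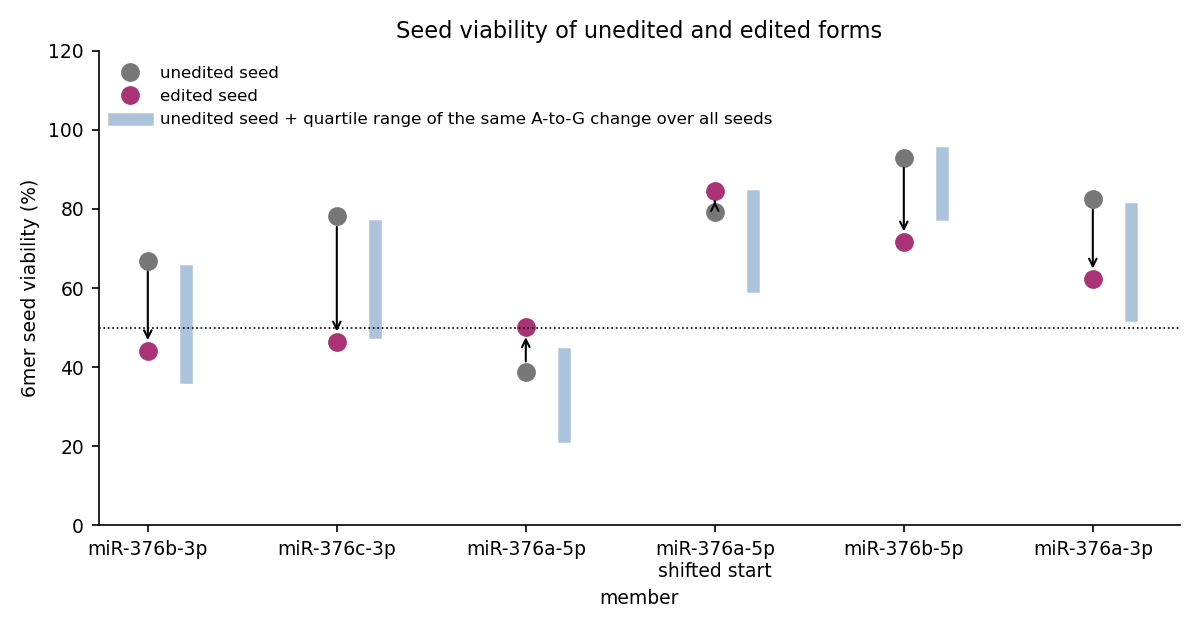
6mer seed viability in percent of the unedited (gray) and edited (purple) seed of each member, joined by an arrow, with a bar at the unedited value plus the quartile range of the same A-to-G change over all seeds and a dotted line at 50%. With the edited base scored as G, miR-376b-3p and miR-376c-3p end below 50%, at 44.2% and 46.4%, and both starts of miR-376a-5p move upward.

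The comparison of the groups asked whether levels or editing of the family differed between Tau tg and WT brain. No member passed an adjusted p of 0.05 in limma, nor did any of 689 miRNAs, which is 0%. At an unadjusted p under 0.05, 25 miRNAs passed, which is 3.63%, and no member was among them. By name, WT 1 to 3 held 841, 1234 and 1374 RPM of miR-376a-3p, while Tau tg 1 to 3 held 2281, 1010 (1010.3) and 1236. Tau tg 1 was the highest sample and the other values overlapped. Its log2 difference was 0.33 ± 0.36 (SE; adjusted p = 0.896), and without Tau tg 1 it was -0.01. For miR-376b-3p it was 0.31 ± 0.35 by name (adjusted p = 0.896), with a 95% interval of 0.746-fold to 2.07-fold.

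The 5p arms of miR-376a and miR-376b were lower on average in Tau tg, within their spread, and without Tau tg 2 the log2 differences given here were -0.20 and -0.18. Of miR-376b-5p by name, WT 1 to 3 held 670 (669.8), 803 and 614 RPM, while Tau tg 1 to 3 held 663, 434 and 564, with a log2 difference of -0.34 ± 0.34 (SE; adjusted p = 0.896). For miR-376a-5p the WT samples held 109, 186 and 132 RPM, while the Tau tg samples held 117, 60.2 and 124, with -0.53 ± 0.52 (SE; adjusted p = 0.896). For miR-376c-3p the WT samples held 111, 70.5 and 82.6 RPM, while the Tau tg samples held 109, 63.6 and 108, with 0.07 ± 0.55 (SE; adjusted p = 0.985), and its sign turned to -0.09 under median-of-ratios scaling. For miR-376c-5p the WT samples held 5.15, 0 and 0 RPM, while the Tau tg samples held 0.142, 1.67 and 4.91, which is 12 reads or fewer in each.

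When edited and unedited forms were fitted as separate miRNAs with all others, 26 of 695 passed an unadjusted p under 0.05, which is 3.74%, and no form did. The log2 difference was 0.23 ± 0.33 (SE) for edited and 0.33 ± 0.35 for unedited miR-376b-3p. For miR-376c-3p it was 0.47 ± 0.53 edited and 0.08 ± 0.55 unedited, and for miR-376b-5p 0.46 ± 0.62 edited and -0.34 ± 0.34 unedited. The 95% interval for edited miR-376b-3p ran from 0.720-fold to 1.92-fold, so differences within that range are compatible with these 3 mice a group.

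Edited shares did not pass a test either, and 3 against 3 samples cannot give an exact p below 0.1. At A6 of miR-376b-3p, Tau tg minus WT was -1.23 percentage points, from 74.9% ± 5.16 to 73.6% ± 3.96 (SD, n = 3 each; exact two-sided permutation p = 0.7), and the sign turned without WT 2 (1.74 points) and without Tau tg 1 (0.477 points). At A6 of miR-376c-3p it was 6.73 points, from 47.3% ± 4.59 to 54.0% ± 3.49 (exact permutation p = 0.2), and 3 of 3 Tau tg samples were above the WT mean. At A7 of miR-376b-5p it was 6.24 points, from 8.51% ± 2.45 to 14.7% ± 8.68 (exact permutation p = 0.3), and it was 1.29 points without Tau tg 2. At A4 of miR-376a-5p it was -6.02 points, from 40.6% ± 18.2 to 34.6% ± 13.7 (exact permutation p = 0.6). It was 4.21 points without WT 2 and 0.477 points without Tau tg 3, and -24.8 points in reads with the shifted start alone (exact permutation p = 0.2). After Benjamini-Hochberg adjustment over 10 sites, every p was 1.

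Read ends were compared between edited and unedited reads of the same sample, which the choice of members did not use. In miR-376b-3p, 8.26% ± 3.30 of edited and 3.95% ± 2.28 of unedited RPM were in reads shorter than 21 nt (SD, n = 6), higher for edited reads in 6 of 6 samples. In miR-376b-5p, 28.4% ± 14.2 of edited and 42.7% ± 3.16 of unedited RPM were in reads longer than 21 nt, lower for edited reads in 6 of 6 samples. Reads with the RefSeq start made up 100% of edited and 91.5% ± 4.52 of unedited miR-376b-5p RPM, higher for edited reads in 6 of 6 samples. For each of these features the exact sign-flip test gave p = 0.03125, the smallest that 6 samples allow. After adjustment for the 20 comparisons it was 0.208, so none passed. The share of reads with a 3′ base that the hairpin does not encode was 9.33% ± 3.68 in edited and 8.52% ± 3.15 in unedited miR-376b-3p (exact sign-flip p = 0.563).

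The miRNAs of the cluster from miR-379 to miR-410, members left out, were counted beside the family. Of 57 arms tested, 36 were higher and 21 lower in Tau tg, and 0 passed an adjusted p of 0.05 in limma, nor an unadjusted one. Their median log2 difference was 0.13, against 0.25 over all 689 miRNAs, of which 438 were higher. The 5 miRNAs whose log2 levels followed miR-376a-3p most closely over the 6 samples, by Pearson r among 471 candidates, were miR-188-3p (0.93), miR-204-5p (0.90), miR-448-3p (0.87), miR-30e-5p (0.83) and miR-30a-5p (0.81). These are the highest of 471 correlations, each over only 6 samples. Each of the 5 was highest in Tau tg 1, as was miR-376a-3p, which was used as the most abundant member by name. miR-204-5p and miR-448-3p are markers of choroid plexus, and none of the 5 was in the cluster list. The 3 choroid plexus markers summed to between 1880 (1879.8) and 5610 RPM in WT and between 2302 and 9394 RPM in Tau tg. Their part in the level of miR-376a-3p was not tested.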

How the data were processed

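Ago-bound short RNAs were pulled down with a GW182-derived peptide from 3 WT and 3 Tau tg mouse brains, grouped by the sample titles. Reads were trimmed (Trim Galore per the labels) and compiled into unique sequences with the SPOROS pipeline, rare and artificial sequences were removed, and sequences were named by BLAST. The deposited values are RPM, scaled by the authors. Seed viability was used as a score deposited by the authors. Removal of rare sequences makes low shares incomplete. The aligner settings and genome build were not given in the sources used here.

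Whole reads were recovered from the RPM steps (100% of values up to 1000 reads whole within 0.0242 reads, the tolerance growing in proportion above; edgeR called 0 and DESeq2 5 miRNAs on them). Of 109434 rows, 65087 above 0 were used. Reads were matched to the 3 RefSeq hairpins over at least 15 bases with at most 1 change (18 bases with 2) and up to 3 untemplated 3′ bases, and 2 sequences that matched 2 hairpins equally were left out. The plan took edited shares from named rows. Names were found to leave out edited reads, so shares rest on matched reads, and named rows became an alternative. Sites needed 20 reads in every sample. The scan compared the first 17 bases with the commonest read of each miRNA, where a RefSeq hairpin held those bases. Levels were tested with limma 3.58.1 on log2(RPM + 1) over miRNAs with a mean of at least 1 RPM, which understates changes of low rows. Shares were tested by exact permutation over 20 assignments. Alternatives were pseudocounts of 0.1 and 5, other filters, median-of-ratios scaling, limma without trend, edgeR 4.0.16, DESeq2 1.42.0, a replicate block, read subsets and leaving out each sample. The matching and limma steps were tested on simulated data, in which limma called 87.5% of 200 miRNAs changed 4-fold among 689 at a dispersion of 0.1, and 0% (27% unadjusted) at 0.79. The value of 0.79 is the common dispersion that edgeR estimated over all 689 miRNAs. It was given to every simulated miRNA and was not estimated for the members, whose intervals are given above. R 4.3.3, Python 3.11.15 and ViennaRNA 2.7.2 were used. Named miRNAs were the members, the 5 nearest in pattern, the known list and the 3 highest others in the scan. The members and lists were chosen with earlier results of these data known.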

Additional observations from a re-analysis of the deposited data

How the results depend on the processing

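No member passed an adjusted p of 0.05 under any of 18 alternatives, among them sums with edited reads, chosen after seeing the data, and the smallest adjusted p was 0.757. Over all miRNAs DESeq2 called 5 and the fit without Tau tg replicate 1 called 1. For miR-376a-3p the log2 difference ranged from -0.0104 to 0.58 with a sample left out, for miR-376b-3p from 0.15 to 0.50, for miR-376c-3p from -0.0791 to 0.32, for miR-376c-5p from -0.0688 to 1.39, for miR-376a-5p from -0.72 to -0.20, for miR-376b-5p from -0.48 to -0.18. miR-376c-3p was also -0.0747 in DESeq2, -0.0358 in edgeR and -0.0932 under median-of-ratios scaling; the cause was not tested. With a sample left out, the edited share difference ranged from -3.40 to 1.74 percentage points at A6 and from -0.00207 to 0.144 at A4 of miR-376b-3p, from -13.2 to 4.21 at A4 of miR-376a-5p, from -0.0070 to 0.137 at A6 of miR-376a-3p, and from -0.118 to 0.205 at A2 of miR-376c-3p. At that A2 it was 0.0622 for named reads and 0.143 for sequences of at least 3 reads. A match with no change but the site, chosen after seeing the data, reversed none. Named reads gave no share at A6 of miR-376b-3p and miR-376c-3p and at A7 of miR-376b-5p, since none of their edited reads had a name, and gave -2.63 points at A4 of miR-376a-5p. Reads with the commonest 5′ end, the shifted one, gave -24.8 points there. Same-numbered samples did not deviate together (correlations of -0.00201, -0.0693 and 0.0413), and with the replicate block the fit called 0 miRNAs; the paired sign-flip p was 0.5 at A6 of miR-376b-3p and 0.25 at A6 of miR-376c-3p, the smallest that 3 pairs allow. Depth limited miR-376c-5p and shares near 0.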

Other observations

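Outside the family, the groups were split in the scan at A3 of miR-540-5p, which ranked 6. WT 1 to 3 had A-to-G shares of 1.16%, 0.375% and 0%, while Tau tg 1 to 3 had 23.7%, 30.6% and 24.6%, on at least 47 reads in each sample, and the groups did not overlap. It was singled out after its values were seen, and no test was run. The share of all scanned sites at which the groups did not overlap is not given here. Whether the G is edited, comes from another gene copy or is a strain variant cannot be told apart here. The miRNA was named at 40.3 to 181 RPM in WT and 82.0 to 140 (139.5) RPM in Tau tg. miR-374c-3p A4 had 7.04% pooled through WT 2 alone, at 83.3%, and miR-337-3p A3 had 3.28% pooled with 14.0% in WT 1.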
